A study of Mus musculus with 6 samples.

Results

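The genes of fatty acid oxidation in mitochondria and peroxisomes were followed from primary to metastatic tumours of mice carrying ID8-VEGF cells. The list named 32 genes, and 30 of them had a probe set with exactly 1 gene symbol in the platform annotation, out of 30142 genes measured that way. Etfb was left out because its probe set also carries a microRNA symbol, and no probe set was found for Ucp2 in the annotation used here. Each of the 30 genes had a single such probe set, and its Affymetrix log2 intensity (RMA values as deposited) is the level given below. The highest value on an array was 19.45 to 19.89, higher than RMA alone usually gives. The sources used here do not say what else set the scale, and folds hold for the deposited scale only.

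ID8 cells descend from the surface epithelium of the mouse ovary, and the ID8-VEGF variant makes vascular endothelial growth factor. They were placed under the bursa of the ovary by injection, and late-stage tumours of 3 mice, C1M3, C1M5 and C2M3, were profiled. A primary and a metastatic tumour were taken from each of the mice, so all 6 tumours share the cell line and the route of injection, and they differ by site and by animal. The host strain, age, any surgery and the site of each metastasis are not given in the labels, and the source name of the primary tumour of C2M3 reads C2M2, where its title and donor label give C2M3. The tumours hold host tissue as well as ID8-VEGF cells. The markers of ovarian surface and mesothelium, from which the line descends, averaged 11.18 to 13.28 on the log2 scale over the 6 arrays.

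Fatty acids are burned in mitochondria by a cycle that shortens the chain at each turn. The carnitine shuttle carries the acyl chain across the mitochondrial membranes, acyl-CoA dehydrogenases start the cycle, hydratases, hydroxyacyl-CoA dehydrogenases and thiolases complete it, and the electron transfer flavoprotein hands the electrons to the respiratory chain. Peroxisomes shorten very long and branched chains by a parallel route whose first oxidation makes hydrogen peroxide, which catalase removes. Fat cells, liver and muscle are rich in parts of this machinery, and nuclear receptors of the PPAR family drive many of its genes.

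All 30 measured genes had a lower mean in metastatic than in primary tumours, against 44.9% of all genes tested and 45.1% of genes above the median level. The sizes were small for most of them. The median difference was -0.26 on the log2 scale, against 0.02 over all genes, and 9 of the 30 genes differed by less than 0.1. Catalase stood apart at -2.42, and it was the 1 gene of the list at least 2-fold lower, against 0.567% of all genes. No gene passed the test. With limma and the mouse as a block, 0 of the 30 and 0 of 30142 genes (0%) passed an adjusted p of 0.05, and that of the 30 genes lay between 0.841 and 0.995. At an unadjusted p under 0.05, limma gave 2 of the 30 genes, Etfa and Hadha, both lower. Of all genes, 1.97% had such a p and were lower. Limma without the block gave 4 of the 30, all lower, and 1.33% of all genes had such a p and were lower. Counted in both directions, 1485 of 30142 genes had an unadjusted p under 0.05 in limma with the block and 1269 without it. With the block, 891 of these were higher and 594 lower. The list was drawn up with earlier results of these arrays known.

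The direction leaned on mouse C2M3. Within that mouse 28 of 30 genes were lower in the metastatic tumour, with a median of -0.41, against 31.3% of all genes. Within C1M5 there were 20, with a median of -0.10, against 36.2%, and within C1M3 there were 18, with a median of -0.11, against 54.3%. Some of these pairs were exact ties, 2 in C1M3, 4 in C1M5 and 1 in C2M3, and 26.8% of all genes had equal values in both tumours of at least 1 mouse. Without both tumours of C2M3, 22 of the 30 genes had a lower mean, against 50.9% of all genes, and without its primary tumour alone 24 did. In 9 genes the metastatic tumour was lower in every mouse, against 8.64% of all genes and 10.6% of those above the median level. They were the trifunctional protein genes Hadha and Hadhb, Hadh, Eci2, Etfa, Etfdh, Ehhadh, Cat and Pex11a. The 3 primary and 3 metastatic values did not overlap for Cat, Hadh and Etfdh, 3 of 30 genes against 2.84% of all genes.

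**Figure D1:**
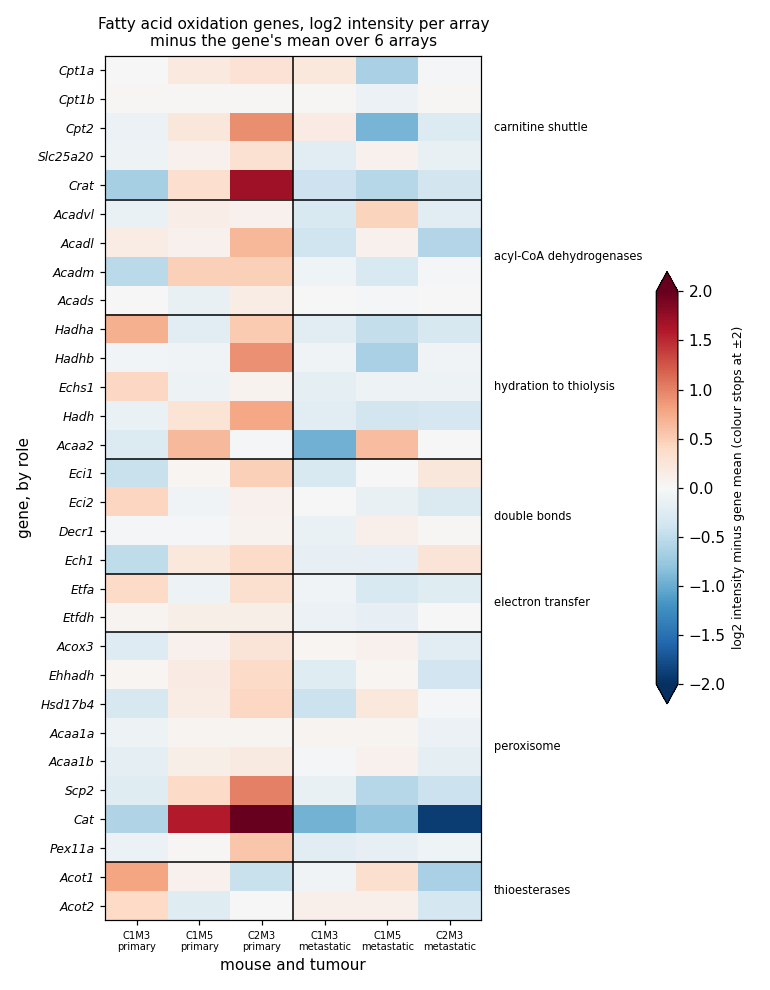
Log2 intensity of the 30 measured genes on each array, minus the gene's mean over the 6 arrays, with genes in rows by role and arrays in columns by tumour and mouse. The primary tumour of C2M3 holds the highest value of 19 genes, and catalase has the widest range.

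**Figure D2:**
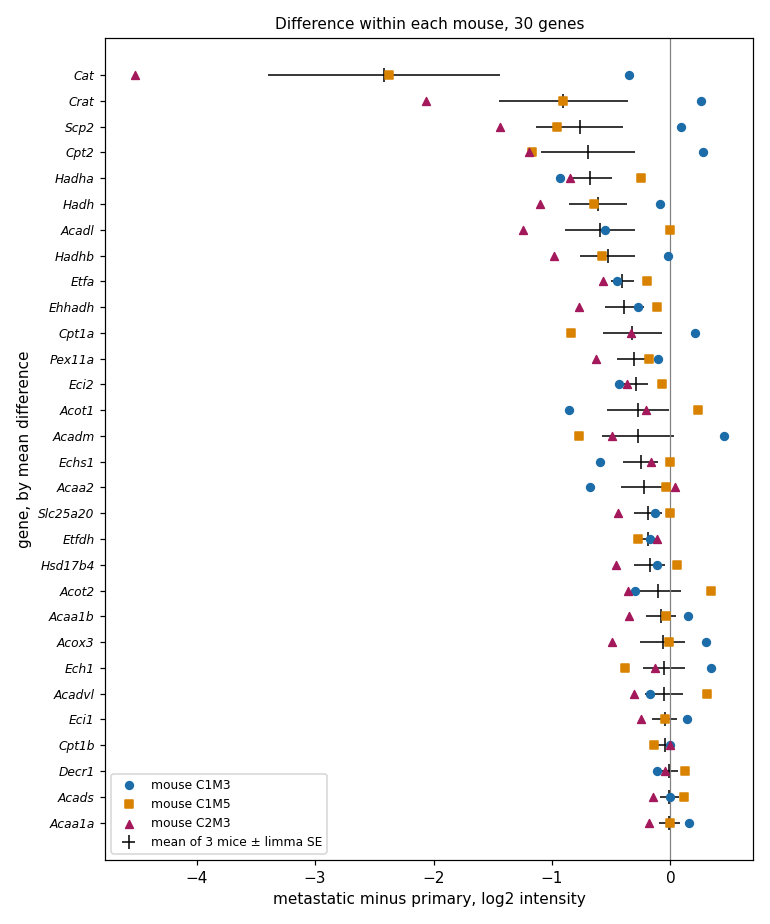
Metastatic minus primary log2 intensity within each mouse (coloured points) and its mean over 3 mice with the limma standard error (black), for the 30 genes ordered by mean. All 30 means lie below 0, while single mice lie on both sides of 0 for many genes.

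Catalase had the widest difference of the list. Its gene Cat, which encodes the peroxisomal enzyme that splits hydrogen peroxide, stood at 11.45, 13.64 and 14.67 (log2 intensity) in the primary tumours of C1M3, C1M5 and C2M3, and at 11.10, 11.26 and 10.15 in the metastatic tumours, in the same order of mice. Every primary value lay above every metastatic value, with the primary tumour of C1M3 close to the metastatic range and the other primary tumours well above it. The mean difference was -2.42 (SE 0.98, limma adjusted p = 0.841), or 5.34-fold higher in primary tumours, and it was made of -0.35, -2.38 and -4.52 in the order of mice above. It was -1.36 without the tumours of C2M3 and -3.45 without those of C1M3. Over all genes, 0.07% had a lower mean difference.

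The other peroxisomal genes differed less. Scp2, which encodes sterol carrier protein x with its thiolase for branched chains and a lipid transfer protein, had 7.0, 7.63 and 8.25 in primary and 7.09, 6.67 and 6.82 in metastatic tumours. The primary tumours of C1M5 and C2M3 stood above all others, and that of C1M3 lay within the metastatic range. The difference was -0.77 (SE 0.37, limma adjusted p = 0.841), and it was -0.43 without the tumours of C2M3 and -1.20 without those of C1M3. Ehhadh, the bifunctional enzyme for straight chains, had 4.61, 4.73 and 4.95 in primary and 4.33, 4.61 and 4.18 in metastatic tumours, differing by -0.39 (SE 0.17). Pex11a, a membrane protein of peroxisome division, had 4.98, 5.12 and 5.65 against 4.88, 4.93 and 5.01, a difference of -0.31 (SE 0.14). Both were lower in every mouse at levels close to the array medians of 4.90 to 5.15, where the precision of an array is low. Without the tumours of C2M3 the differences were -0.20 for Ehhadh and -0.15 for Pex11a.

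Hsd17b4, the bifunctional enzyme for branched and very long chains, differed by -0.17 (SE 0.13), by -0.031 without the tumours of C2M3 and by -0.0019 without the metastatic tumour of C1M3 alone. It was -0.29 without the tumours of C1M5. Acox3, an oxidase of branched chains, differed by -0.07 (SE 0.19). The peroxisomal thiolase genes Acaa1a and Acaa1b differed by -0.01 (SE 0.09) and -0.08 (SE 0.13). They are close copies, so signal cannot be assigned to either with certainty. Over the 8 peroxisomal genes the median difference was -0.24, made of -0.01 in C1M3, -0.08 in C1M5 and -0.56 in C2M3. In 7 of the 8 the primary tumours stood in the order C1M3, C1M5, C2M3 from low to high, the exception being Acaa1a.

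In the carnitine shuttle, Cpt1a, Cpt2 and Crat had a lower metastatic than primary value within C1M5 and C2M3 and a higher one within C1M3. Crat, carnitine acetyltransferase, which buffers short acyl groups, had 6.83, 7.84 and 9.19 in the primary tumours of C1M3, C1M5 and C2M3 and 7.09, 6.93 and 7.13 in the metastatic ones. The spread was wide among primary tumours (SD 1.19, n = 3) and narrow among metastatic ones (SD 0.11, n = 3), and the primary tumour of C1M3 was the lowest array of all. The difference was -0.90 (SE 0.55, limma adjusted p = 0.841), and -0.32 without the tumours of C2M3 and -1.49 without those of C1M3. Cpt2, which returns acyl groups from carnitine to coenzyme A at the inner membrane, had 9.36, 9.70 and 10.40 against 9.63, 8.54 and 9.20, a difference of -0.69 (SE 0.40). Its groups overlapped through mouse C1M3, where the metastatic tumour was higher by 0.28, and its difference was -0.44 without the tumours of C2M3, -0.46 without those of C1M5 and -1.18 without those of C1M3.

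Cpt1a, the carnitine palmitoyltransferase of the outer membrane that controls entry, had 14.48, 14.65 and 14.75 in primary and 14.68, 13.81 and 14.42 in metastatic tumours, differing by -0.32 (SE 0.25). Only the metastatic tumours of C1M5 and C2M3 lay below the primary range, C1M5 by more, and the difference was -0.063 without the tumours of C1M5 and -0.59 without those of C1M3. Cpt1b, the muscle form, lay just under the array medians, with 4.56 on 5 arrays and 4.42 on the metastatic array of C1M5. The carrier gene Slc25a20 differed by -0.19 (SE 0.12), and by -0.064 without the tumours of C2M3. The list median of these 5 genes was 0.20 in C1M3, -0.84 in C1M5 and -0.45 in C2M3.

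**Figure D3:**
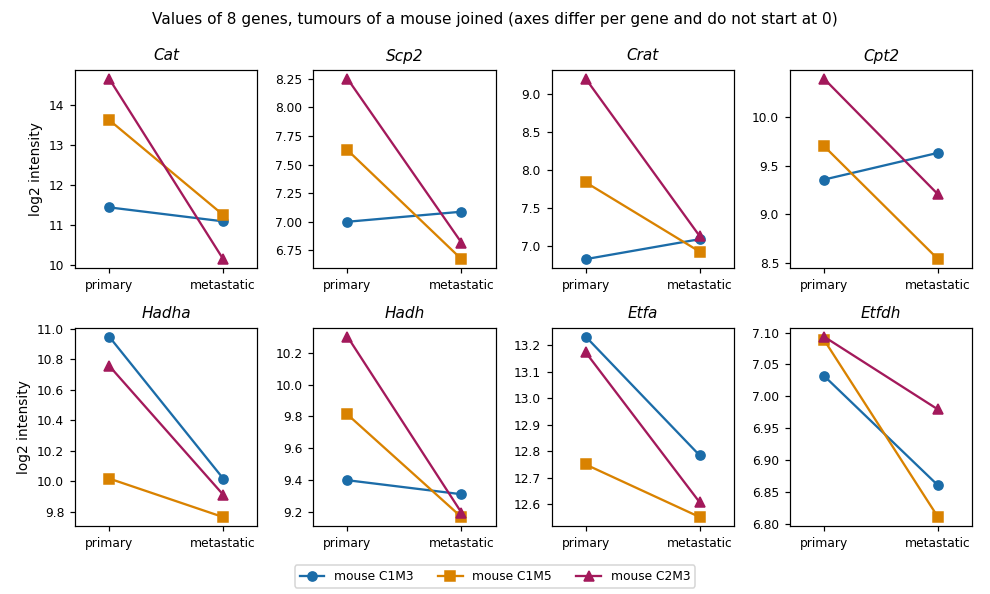
Log2 intensities of 8 genes in the primary and metastatic tumour of each mouse, joined by a line per mouse, with an axis of its own for each gene. The upper row (Cat, Scp2, Crat, Cpt2) shows lines of C1M3 that are nearly level or slope up and steep downward lines of the other mice, and the lower row (Hadha, Hadh, Etfa, Etfdh) shows lines that slope down in all 3 mice. The 8 genes were chosen after their values were seen, so the contrast between the rows follows from the choice.

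Of the 5 genes whose enzymes complete the mitochondrial cycle, 3 were lower in every mouse. Hadha encodes the alpha subunit of the trifunctional protein, which hydrates and oxidises long chains. It had 10.95, 10.02 and 10.76 in the primary tumours of C1M3, C1M5 and C2M3 and 10.02, 9.77 and 9.91 in the metastatic ones. The metastatic values lay in a narrow band, and the groups met at the primary tumour of C1M5, the lowest of its group. The difference was -0.68 (SE 0.18, limma adjusted p = 0.841), with -0.93, -0.25 and -0.84 within the mice. Without the tumours of C2M3 it was -0.59.

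Hadhb, the thiolase subunit of the same protein, had 10.75, 10.73 and 11.72 in primary and 10.73, 10.16 and 10.73 in metastatic tumours, differing by -0.53 (SE 0.23). It stood out high in the primary tumour of C2M3 and low in the metastatic tumour of C1M5, and the remaining arrays lay together. Hadh, the hydroxyacyl-CoA dehydrogenase of shorter chains, had 9.40, 9.81 and 10.30 against 9.31, 9.17 and 9.20, a difference of -0.61 (SE 0.24) with no overlap of the groups. Without the tumours of C2M3 the differences were -0.30 for Hadhb and -0.37 for Hadh. The hydratase gene Echs1 differed by -0.25 (SE 0.15) and the thiolase gene Acaa2 by -0.22 (SE 0.19), with its widest value, -0.68, in C1M3. Without the tumours of C1M3, Echs1 differed by -0.083 and Acaa2 by 0.0018. The median of these 5 genes was -0.59 in C1M3, -0.25 in C1M5 and -0.84 in C2M3.

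Both measured electron transfer genes were lower in every mouse. Etfa, the alpha subunit of the electron transfer flavoprotein, had 13.23, 12.75 and 13.17 in the primary tumours of C1M3, C1M5 and C2M3 and 12.78, 12.55 and 12.61 in the metastatic ones. Each metastatic tumour lay below the primary tumour of its own mouse, and the groups overlapped because C1M5 was low in both. The difference was -0.41 (SE 0.10, limma adjusted p = 0.841), and it lay between -0.56 and -0.31 whichever array or mouse was left out. Etfdh, the oxidoreductase that passes the electrons to ubiquinone, had 7.03, 7.09 and 7.09 against 6.86, 6.81 and 6.98, with no overlap and a difference of -0.19 (SE 0.06).

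All 4 acyl-CoA dehydrogenases were lower in the metastatic tumour of C2M3, with a median of -0.40, and their directions were mixed within C1M3 and C1M5. Acadl, the long-chain enzyme, had 10.42, 10.35 and 10.92 in primary and 9.87, 10.35 and 9.68 in metastatic tumours, differing by -0.60 (SE 0.30), with both tumours of C1M5 at the same value. It was -0.28 without the tumours of C2M3 and -0.90 without those of C1M5. Acadm, the medium-chain enzyme, had 8.49, 9.50 and 9.50 against 8.95, 8.73 and 9.0, a difference of -0.27 (SE 0.30), and was higher in the metastatic tumour of C1M3 by 0.45. Its difference was -0.63 without the tumours of C1M3, -0.021 without those of C1M5 and -0.16 without those of C2M3. Acadvl and Acads, for very long and short chains, differed by -0.06 (SE 0.16) and -0.01 (SE 0.08).

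Of the enzymes that prepare double bonds for the cycle, Eci2, an enoyl-CoA isomerase, had 9.44, 8.94 and 9.09 in primary and 9.0, 8.86 and 8.72 in metastatic tumours. Its difference was -0.29 (SE 0.10), with each mouse lower and the groups overlapping, and it was -0.15 without the primary tumour of C1M3. The isomerase genes Eci1 and Ech1 and the dienoyl-CoA reductase gene Decr1 differed by -0.05 (SE 0.10), -0.06 (SE 0.18) and -0.01 (SE 0.08). The thioesterases Acot1 and Acot2, which release fatty acids from coenzyme A in the cytosol and in mitochondria, differed by -0.28 (SE 0.26) and -0.10 (SE 0.19). Both were lower in C1M3 and C2M3 and higher in C1M5, by 0.23 and 0.35. They are close copies, and signal cannot be assigned to either with certainty.

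The upstream sequences of 4 of these genes are shown, chosen after their values were seen. Cat and Scp2 had the widest differences of the peroxisome, and Hadha, Hadhb and Etfa were among the mitochondrial genes lower in every mouse. Hadh, Etfdh and Eci2 were lower in every mouse too and are not shown. Hadha and Hadhb are read in opposite directions from starts on chromosome 5 with 272 bases between them, so the window before Hadhb also lies before Hadha, and the subunits of the trifunctional protein share this stretch. The sequences are from RefSeq on GRCm38.p6, the 250 bases before the start of the gene, in its own direction. Capitals mark exact matches on either strand to GGGCGG (the GC box), CCAAT and AGGTCA, the core motif of nuclear receptors such as the PPAR family. The windows are chr5:30155003-30155252 on the + strand for Hadhb, chr2:103485154-103485403 on the - strand for Cat, chr4:108118548-108118797 on the - strand for Scp2 and chr9:55512244-55512493 on the - strand for Etfa.
Hadhb: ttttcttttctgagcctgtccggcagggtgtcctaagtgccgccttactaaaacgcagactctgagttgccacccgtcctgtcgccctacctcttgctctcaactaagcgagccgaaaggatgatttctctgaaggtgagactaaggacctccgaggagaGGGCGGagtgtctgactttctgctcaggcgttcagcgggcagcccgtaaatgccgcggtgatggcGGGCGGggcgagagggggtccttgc
Cat: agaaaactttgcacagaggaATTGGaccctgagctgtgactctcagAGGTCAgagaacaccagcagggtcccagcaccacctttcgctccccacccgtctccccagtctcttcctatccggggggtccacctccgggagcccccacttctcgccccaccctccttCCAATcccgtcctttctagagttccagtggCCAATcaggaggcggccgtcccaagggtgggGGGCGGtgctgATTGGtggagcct
Scp2: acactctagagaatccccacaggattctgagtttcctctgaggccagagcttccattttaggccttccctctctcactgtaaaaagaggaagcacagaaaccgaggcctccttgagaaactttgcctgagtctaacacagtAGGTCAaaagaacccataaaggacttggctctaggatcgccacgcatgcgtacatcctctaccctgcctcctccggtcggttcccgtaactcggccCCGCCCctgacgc
Etfa: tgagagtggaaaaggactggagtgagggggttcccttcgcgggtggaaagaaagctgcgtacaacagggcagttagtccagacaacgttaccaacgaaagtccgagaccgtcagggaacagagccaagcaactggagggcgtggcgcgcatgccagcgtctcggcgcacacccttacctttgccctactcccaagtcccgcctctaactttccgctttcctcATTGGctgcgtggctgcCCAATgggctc

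The window of Cat held 4 CCAAT motifs, 1 GC box and 1 AGGTCA, that of Scp2 held 1 AGGTCA and 1 GC box, that of Hadhb 2 GC boxes, and that of Etfa 2 CCAAT motifs. Windows were found for 25 of the 30 genes, and 18 of them (72%) held a GC box, against 32.7% of 32851 windows of the same length. CCAAT was in 11 (44%), against 33.8%, and AGGTCA in 6 (24%), against 14%. The 6 were Cat, Scp2, Acadm, Acadvl, Echs1 and Cpt1a. The full element of the PPAR family (AGGTCA repeated after 1 base of any kind), a looser form of it with the fourth base of each repeat free, and TCAAGGTCA, the element of estrogen-related receptors, were in none of the 25 windows and in 0.0335%, 0.338% and 0.387% of all windows. TATAAA was in none, against 12.4%. The median share of G and C was 58.8% in the 25 windows and 52.4% in all windows. The part of this base content in the motif shares was not tested. AGGTCA lies within the longer elements, so these motifs overlap. A match is a description of letters, and binding was not measured here.

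Fat cell markers had the same order of tumours as several of these genes. Of 12 white adipocyte markers 10 were measured, all with a lower mean in metastatic tumours. Their mean log2 intensity was 5.78, 8.92 and 10.91 in the primary tumours of C1M3, C1M5 and C2M3 and 5.92, 5.94 and 5.49 in the metastatic tumours. The median difference was 0.15 in C1M3, -3.0 in C1M5 and -5.59 in C2M3. The widest were Retn (resistin) at -5.02, Car3 (a carbonic anhydrase of fat) at -4.20 and Adipoq (adiponectin) at -3.92, each with a limma adjusted p of 0.841. In bulk tumours, fewer cells of a type and less RNA per cell cannot be told apart, and the part of fat cells in the values above was not tested.

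The same order of primary tumours, C1M3 under C1M5 under C2M3, was found in 16 of the 30 fatty acid oxidation genes, against 10.6% of all genes and 14.8% of those above the median level. This order was looked for after the values were seen. It includes Cat, Scp2, Crat, Cpt2 and Hadh, and it leaves out Hadha, Hadhb, Etfa and Eci2. In mouse C1M3 the named genes of this order differed both ways. They differed by -0.35 for Cat, -0.09 for Hadh, 0.26 for Crat, 0.28 for Cpt2 and 0.09 for Scp2. The named genes outside this order differed by -0.93 for Hadha, -0.02 for Hadhb, -0.45 for Etfa and -0.44 for Eci2. Of the others outside it, Acaa1a was higher by 0.15, Acads and Cpt1b were tied, and the rest were lower. The order needs the primary value of C1M3 to be the lowest, and that value also enters the difference within C1M3. Genes inside and outside the order therefore cannot be compared on these differences. Endothelial, smooth muscle, fibroblast and macrophage markers had this order in 6 of 6, 5 of 6, 4 of 4 and 7 of 9 genes. In all 4 lists the mean over the list was lowest, among primary tumours, in C1M3. The fibroblast means were 7.97, 10.40 and 11.69 and the macrophage means 6.59, 8.90 and 9.38 in the primary tumours of C1M3, C1M5 and C2M3. The first 2 of these lists had medians within C1M3, C1M5 and C2M3 of 1.43, -1.37 and -1.68 for endothelial and 0.16, -1.19 and -1.69 for smooth muscle. Those 2 lists had as their widest genes Cldn5, Cdh5 and Tek at -1.22, -0.85 and -0.72, and Cnn1, Des and Myh11 at -1.08, -1.06 and -1.04.

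Markers of other tissues rich in fatty acid oxidation had list means on both sides of the array medians of 4.90 to 5.15, with single genes far above. Skeletal muscle and kidney tubule means lay below these medians, hepatocyte means around them, and heart muscle and brown adipocyte means above them. The means of hepatocyte, skeletal muscle, heart muscle and kidney tubule markers lay at 4.76 to 5.23, 4.39 to 4.52, 5.19 to 5.57 and 4.02 to 4.21 over the 6 arrays. Ucp1, which defines brown fat, stood between 3.48 and 3.64 on every array, and the brown adipocyte list at 5.75 to 6.17. Some members stood far above these means and were picked after their values were seen. They were the hepatocyte gene Ahsg at 7.29 to 11.45, and Pank1 at 10.26 to 12.53 and Cox7a1 at 10.38 to 12.32 of the brown fat list. Of the heart list, Tnnt2 lay at 7.06 to 7.15, Tnni3 at 5.80 to 7.03 and Myl7 at 4.43 to 7.12. Markers of steroid-making ovarian cells averaged 6.86 to 7.44 in primary and 6.15 to 7.26 in metastatic tumours. Of these, Inha lay at 10.24 to 16.32 and Star at 9.89 to 10.52, and the other measured members lay at 3.85 to 6.35. Inha differed by -0.52 in C1M3, -3.32 in C1M5 and -0.43 in C2M3.

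Of 7 measured cell cycle genes, 7 had a mean difference below 0, with a median of -0.64, made of -1.43 in C1M3, 0 in C1M5 and -0.34 in C2M3. The mean over the list stood at 9.76, 8.23 and 7.87 for primary tumours and at 8.45, 8.27 and 7.17 for metastatic tumours. The widest were Plk1, a mitotic kinase, Mki67, the proliferation marker, and Cdc20, an activator of the anaphase complex, at -0.97, -0.97 and -0.91. Macrophage markers had a higher mean in 9 of 9 genes, with a median of 0.76, made of 1.63 in C1M3, 0 in C1M5 and 0.16 in C2M3. The T cell list had a median of 0.27. Of 4 fibroblast genes 2 had a lower and 2 a higher mean, and the median within mice was 1.55 in C1M3, -0.73 in C1M5 and -0.21 in C2M3. The part of these cells in the values was not tested.

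A list that joined citrate cycle genes with general mitochondrial genes had mostly lower means too. Of 15 measured, 11 had a lower mean, against 44.9% of all genes. In 6 the metastatic tumour was lower in every mouse, against 8.64% of all genes and 10.6% of those above the median level. For the fatty acid oxidation genes this count was 9 of 30. The median difference was -0.20, made of -0.33 in C1M3, -0.08 in C1M5 and -0.22 in C2M3. Cs, citrate synthase, had 12.36, 12.44 and 12.17 in primary and 11.77, 11.55 and 11.33 in metastatic tumours, with no overlap. Its difference was -0.77 (SE 0.09, limma adjusted p = 0.841). Mdh2, mitochondrial malate dehydrogenase, differed by -0.73 (SE 0.13), and Idh3g, a subunit of isocitrate dehydrogenase, by -0.41 (SE 0.08). These widest genes belong to the citrate cycle. The general mitochondrial genes differed by -0.32 for Tomm40, -0.12 for Timm23, -0.06 for Tomm20, -0.02 for Hspd1 and 0.18 for Vdac1.

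**Figure D4:**
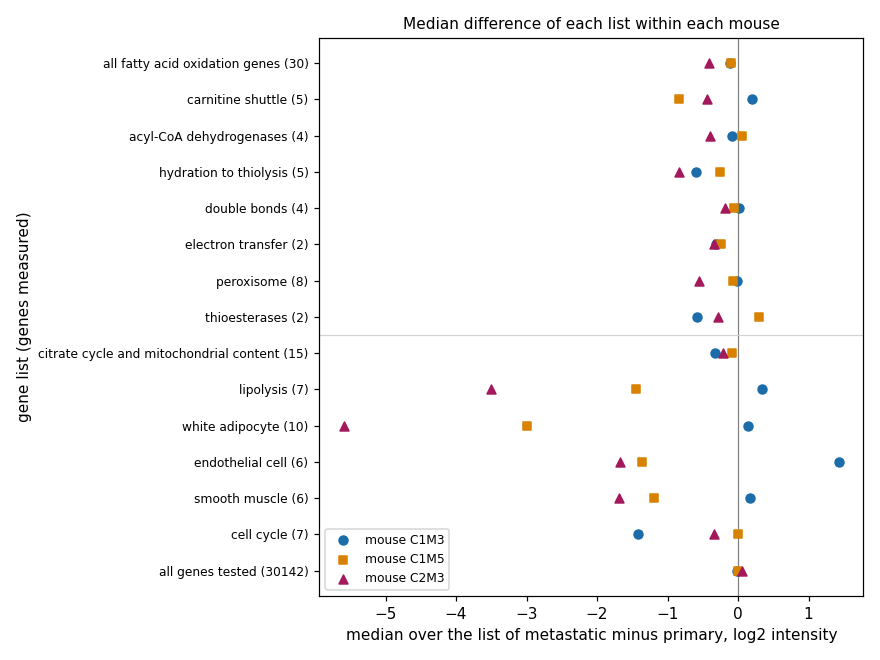
Median over each gene list of metastatic minus primary log2 intensity within each mouse, for the fatty acid oxidation genes and their roles (above the line) and for other lists (below it), with the number of genes measured. The fat cell and lipolysis lists reach -5.59 and -3.50 in C2M3 and lie just above 0 in C1M3. The list from hydration to thiolysis lies below 0 in all 3 mice, and that of acyl-CoA dehydrogenases lies at 0.06 in C1M5.

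Further genes of the pathway were taken from lists, and none passed the test. Of 11 measured genes of uptake and activation, 8 had a lower and 3 a higher mean. Fabp4, the fatty acid carrier of fat cells, differed by -3.50, Cd36, the translocase, by -3.25, and Slc27a1, a fatty acid transport protein, by -1.83, each with the primary tumours of C1M5 and C2M3 above all metastatic tumours. Acsl5, an acyl-CoA synthetase chosen after its values were seen, was higher in all 3 metastatic tumours than in their primary tumours, by 1.0, 0.21 and 0.73. All 7 lipolysis genes had their primary tumours in the order of the fat markers, and 6 of the 7 had a lower mean. The lists overlap, since Lipe is also on the white adipocyte list, as is Fabp4 of the uptake list and Cidea of the brown fat list. Pnpla2, the first lipase of stored fat, had 7.20, 11.27 and 13.27 in primary and 7.44, 7.21 and 7.15 in metastatic tumours, differing by -3.32 (SE 1.52). Lipe, hormone-sensitive lipase, differed by -2.06 (SE 1.06) and G0s2, an inhibitor of Pnpla2, by -1.81 (SE 0.96). Lipa, the lysosomal lipase and the exception, was higher in metastatic tumours by 0.63.

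Of 15 further peroxisomal genes, 10 had a lower and 5 a higher mean. Abcd2, a carrier of very long chains into peroxisomes, had 5.01, 7.52 and 10.03 in primary and 5.05, 5.19 and 5.12 in metastatic tumours. The primary tumours of C1M5 and C2M3 stood above all other arrays, with a mean difference of -2.40 (SE 1.16). Pex19, a chaperone of peroxisomal membrane proteins, differed by -0.59 (SE 0.25), and Decr2, the peroxisomal dienoyl-CoA reductase, by 0.22 (SE 0.12). Of 13 further mitochondrial genes, 10 had a lower and 3 a higher mean. Acad11, a dehydrogenase of long chains, and Acacb, which makes the malonyl-CoA that restrains Cpt1, both differed by -0.83 (SE 0.55 and 0.38), and Pccb, a subunit of propionyl-CoA carboxylase, by -0.63 (SE 0.19), lower in every mouse.

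Of 11 regulators measured, 10 had a lower and 1 a higher mean. Pparg, the PPAR form that builds fat cells, had 5.09, 7.06 and 8.58 in primary and 5.42, 5.42 and 5.10 in metastatic tumours, differing by -1.60 (SE 0.89). Ppara, the form known for driving fatty acid oxidation in liver and named after its values were seen, stood at 4.68 to 4.69 on every array. Ppargc1a, the coactivator of mitochondrial genes, had 10.86, 7.78 and 7.62 against 9.65, 5.60 and 8.49, with a difference of -0.84 (SE 0.73). It was lower in C1M3 and C1M5 and higher in C2M3 by 0.87, and the array with its highest value was the primary tumour of C1M3. Lpin1, a phosphatidate phosphatase and coactivator, differed by -1.22 (SE 0.53).

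Of 9 measured genes of PPAR targets and ketone bodies, 6 had a lower and 3 a higher mean. Pdk4, the kinase that turns mitochondria from pyruvate to fatty acids, had 8.65, 8.53 and 8.87 in primary and 7.59, 6.52 and 7.44 in metastatic tumours. The groups did not overlap, and the primary tumours lay within a narrow band, with C1M5 the lowest and C2M3 the highest. The part of fat cells in these values was not tested. The difference was -1.50 (SE 0.23, limma adjusted p = 0.841), wider than that of any fatty acid oxidation gene other than Cat. Angptl4, an inhibitor of lipoprotein lipase, differed by -0.50 (SE 0.61), and Fgf21, a fasting hormone at levels below the array medians, by 0.29 (SE 0.07).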

How the data were processed

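The table holds 1 log2 intensity per probe set and array, as deposited by the authors, made with RMA and Transcriptome Analysis Console according to the submitters' processing notes, which give no versions here. RMA corrects background, quantile-normalizes and summarises probes, which can leave equal values on several arrays. Depth does not apply, and 3 arrays per group limit the precision. The build of the array annotation is not given in the sources used here. Of 65956 probe sets that are not controls, 30604 carried 1 gene symbol, 2146 several and 33206 none. Symbols of 827 were updated through Entrez Gene, and for 355 genes with several probe sets the one with the highest mean was kept, giving 30142 genes, with no filter.

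Groups came from the tissue label and pairs from the donor label. Over genes, the deviation from the group mean in the primary tumour correlated with that in the metastatic tumour of its mouse at r = -0.05 (C1M3), 0.35 (C1M5) and 0.07 (C2M3). The comparison used limma 3.58.1 in R 4.3.3 with the mouse as a block, since the labels give the donor, two-sided, adjusted by Benjamini-Hochberg over all genes, threshold 0.05. The fit was checked on simulated data. Differences are metastatic minus primary, with the moderated SE. All measured members were named, and the up to 3 genes with the widest difference of each pathway list and of the white adipocyte, endothelial, smooth muscle and cell cycle lists. Other named genes were chosen after their values were seen. The members and lists were chosen with earlier results of these data known. Alternatives were no block, the mean of probe sets, a filter on dim genes, centred arrays, another variance prior, symbols as annotated, and leaving out each mouse or array.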

Additional observations from a re-analysis of the deposited data

How the results depend on the processing

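With the fit without the replicate block, 0 genes and 0 of the 30 fatty acid oxidation genes were called, as with the block. The count was also 0 with the mean of all probe sets, among genes above the median level only, with centred arrays, with another variance prior, with symbols as annotated, and without any mouse or array. Centring each array moved the median of all genes to -0.09 and the share of all genes with a lower mean from 44.9% to 69.6%, and all 30 genes of the list still had a lower mean, with a median of -0.37. Among genes above the median level all 28 that were left did. Without single mice or arrays the number with a lower mean lay between 22 and 28 of 30 and the median between -0.32 and -0.19. The number lower in every remaining mouse lay between 10 and 18, against 9 in all 3 mice, since fewer mice have to be lower. Of the 30 genes, 11 turned sign when a mouse or array was left out, among them Acot1 and Acaa2, whose differences were -0.28 and -0.22. Without both tumours of a mouse their differences ran from -0.090 to 0.077 for Acaa1a, -0.20 to 0.056 for Acaa1b, -0.36 to 0.0018 for Acaa2, -0.073 to 0.058 for Acads, -0.24 to 0.068 for Acadvl, -0.53 to 0.016 for Acot1, -0.33 to 0.024 for Acot2, -0.25 to 0.14 for Acox3, -0.080 to 0.041 for Decr1, -0.26 to 0.11 for Ech1 and -0.14 to 0.048 for Eci1. With the unpaired fit the means above 0 were, without the primary array of C1M3, 0.048 for Acot1 and 0.068 for Acot2. They were, without the primary array of C1M5, 0.047 for Acaa2, 0.034 for Ech1 and 0.019 for Acaa1a. They were, without the primary array of C2M3, 0.063 for Acads, 0.18 for Eci1, 0.018 for Decr1, 0.12 for Ech1, 0.048 for Acox3 and 0.019 for Acaa1a. They were, without the metastatic array of C1M3, 0.080 for Acadvl, 0.20 for Acaa2, 0.091 for Eci1, 0.054 for Decr1 and 0.014 for Ech1. They were, without the metastatic array of C1M5, 0.0008 for Acads and 0.014 for Ech1. They were, without the metastatic array of C2M3, 0.041 for Acadvl, 0.030 for Acox3, 0.050 for Acaa1a and 0.050 for Acot2. The other genes of the list kept a mean at or below 0 in these settings. The signal of Cpt1b and Ehhadh lay below that of the median gene, which limits what their values can show.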
